A study of Rattus norvegicus with 10 samples.

Results

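The genes described here encode the fibrous scaffold of the lung: 42 collagen chains, 7 genes of the elastic fibre and fibronectin matrix, and the 5 lysyl oxidases that crosslink both. They were taken by name from the deposited gene table, as every row with a collagen chain symbol plus Eln, Fbn1, Fbn2, Fbln1, Fbln2, Fbln5, Fn1, Lox and Loxl1 to Loxl4, which gave 54 of 22250 genes. Expression values played no part in that rule. Messenger RNA was sequenced from rat lung in 10 libraries, 5 named XBS and 5 named MOD. The study's design describes a rat model of neutrophilic asthma made with ovalbumin, the egg white allergen, and lipopolysaccharide from bacterial outer membranes, and a formula, SP (Shuangpi Formula), given to animals. The labels expand neither XBS nor MOD and do not say which libraries came from animals given SP. For strain, age, sex, dose and time the sources used here give nothing. The comparison is therefore that of XBS with MOD libraries.

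Total counts ran from 11998979 to 15518929 per library, and the 54 genes took between 1.09% and 1.85% of them. The labels give lung as the tissue and also name 16HBE, a human bronchial epithelial cell line; the table holds rat gene identifiers. Sftpc, the surfactant gene of alveolar type 2 cells, ranged over 5902 to 13066 CPM among XBS libraries and 10578 to 14375 CPM among MOD libraries, where CPM is the read count scaled to a common library size by TMM. Whether the 5 libraries of a group are 5 animals is not stated; the spread behind the p-values is that between libraries and may be technical. XBS 2 and XBS 3 were low in club and ciliated cell genes, with mean log2 deviations of -2.13 and -1.84, against -0.18 to 1.13 in the other XBS libraries and -0.11 to 0.74 in MOD. XBS 5 stood apart in genes of several cell types, given below beside the collagens. In whole tissue, fewer cells of a type and less RNA per cell cannot be told apart.

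Collagens are built from chains that wind into a helix. Fibrillar collagens such as types I and III form the tensile fibres of the airway wall and alveolar septa, and type IV collagen forms the sheet of the basement membrane on which epithelium and endothelium sit. Elastin, laid on fibrillin microfibrils with the help of fibulins, gives the lung its recoil, and lysyl oxidases start the covalent crosslinks of collagen and elastin.

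The start regions shown are those of 4 type IV collagen genes, which lie head to head, and of Fbln5, the gene with the smallest p. Of the 54 genes, 40 had a promoter in the RefSeq table of build GRCr8, which covers 250 bases before to 50 after the start. The sequences run 5′ to 3′ on the strand of the gene, with capitals at each CCAAT or GGGCGG on either strand (ATTGG and CCGCCC on the other). Coordinates of these windows are in GRCr8, which is not known to be the build of the deposited table.
Col4a1, plus strand, chr16:84885347-84885646: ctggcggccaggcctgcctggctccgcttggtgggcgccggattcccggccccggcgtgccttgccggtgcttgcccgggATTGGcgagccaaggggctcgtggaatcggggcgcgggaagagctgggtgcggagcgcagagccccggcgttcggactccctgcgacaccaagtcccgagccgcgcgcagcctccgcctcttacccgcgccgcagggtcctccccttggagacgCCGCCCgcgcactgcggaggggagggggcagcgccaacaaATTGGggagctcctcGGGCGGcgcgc
Col4a2, minus strand, chr16:84885471-84885770: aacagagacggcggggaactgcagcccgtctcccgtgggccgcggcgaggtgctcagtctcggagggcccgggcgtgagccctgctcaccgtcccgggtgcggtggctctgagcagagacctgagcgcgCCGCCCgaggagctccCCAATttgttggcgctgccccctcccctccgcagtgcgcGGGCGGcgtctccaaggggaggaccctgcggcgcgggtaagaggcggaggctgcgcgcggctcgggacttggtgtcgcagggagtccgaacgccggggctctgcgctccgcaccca
Col4a3, plus strand, chr9:91323740-91324039: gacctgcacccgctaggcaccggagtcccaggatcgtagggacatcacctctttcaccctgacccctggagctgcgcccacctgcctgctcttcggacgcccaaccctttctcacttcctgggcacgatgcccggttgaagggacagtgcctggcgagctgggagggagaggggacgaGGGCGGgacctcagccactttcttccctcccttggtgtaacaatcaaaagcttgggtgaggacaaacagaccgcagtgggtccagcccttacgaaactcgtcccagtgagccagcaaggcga
Col4a4, minus strand, chr9:91323528-91323827: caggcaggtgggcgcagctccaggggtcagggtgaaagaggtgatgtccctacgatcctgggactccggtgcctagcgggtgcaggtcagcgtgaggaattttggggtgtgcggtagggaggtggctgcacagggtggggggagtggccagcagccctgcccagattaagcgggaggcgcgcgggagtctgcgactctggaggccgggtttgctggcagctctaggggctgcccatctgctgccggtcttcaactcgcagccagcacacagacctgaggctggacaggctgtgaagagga
Fbln5, minus strand, chr6:126742657-126742956: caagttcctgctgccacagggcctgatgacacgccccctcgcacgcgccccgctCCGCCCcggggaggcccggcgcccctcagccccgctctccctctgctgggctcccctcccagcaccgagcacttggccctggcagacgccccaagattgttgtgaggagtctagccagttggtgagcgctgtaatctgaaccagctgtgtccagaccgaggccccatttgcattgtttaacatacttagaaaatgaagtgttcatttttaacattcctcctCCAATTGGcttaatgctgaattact

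Col4a1 and Col4a2 start 77 bases apart on opposite strands, so their windows share 176 bases. Col4a3 and Col4a4 start 413 bases apart and their windows share 88 bases, while Col4a5 and Col4a6 start 1415 bases apart and share none. These distances are in GRCr8; the gene models of the deposited table put the starts of these pairs 83601, 374 and 295823 bases apart in turn. G and C made up 75% of the Col4a1 window and 73.7% of the Col4a2 window, and 58.3% of the Fbln5 window. CCAAT occurred on either strand in 12 of the 40 promoters (30%), against 37.7% of all 27457 promoters, and GGGCGG in 22 (55%), against 34.9%. In the Fbln5 window a CCAAT and an ATTGG overlap. CACGTG, the E-box that clock activators bind, was in 0 of the 40, against 6.65% of all promoters. AGGTCA on either strand, the core motif of nuclear receptors such as NR1D1, which the study followed up, was in 3, those of Col4a4, Col6a5 and Col7a1 (7.5%), against 15.7%. TATAAA on either strand was in 3 as well (7.5%), against 14.3%. These counts describe letters in 1 window per gene.

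Type III collagen and elastin led the scaffold. By the deposited FPKM, which divides counts by gene length so that genes can be compared, Col3a1 was highest at 666 ± 189 FPKM in XBS and 565 ± 99.9 FPKM in MOD (SD, n = 5 each). Eln followed at 422 ± 111 FPKM in XBS and 404 ± 93.9 FPKM in MOD, then Col4a1 at 190.1 ± 25.7 FPKM in XBS and 231 ± 15.9 FPKM in MOD and Col1a1 at 217 ± 158 FPKM in XBS and 164 ± 48.8 FPKM in MOD. Next came Col6a1, Col4a2, Col6a2, Fn1, Loxl1, Col5a2 and Fbln5, with mean levels over the 10 libraries of 160.2, 148, 132, 104, 90.7, 81.4 and 74.5 FPKM. At the other end, 11 genes did not pass the filter on low counts and were not tested: Col2a1, Col9a1, Col9a3, Col10a1, Col19a1, Col22a1, Col23a1, Col25a1, Col26a1, Col28a1 and Fbn2. Col2a1, Col9a1 and Col10a1, collagens of cartilage, and Col25a1, a membrane collagen, had at most 4 counts in any library. Col28a1 reached the most counts of the 11, at 44 in XBS 5. A further row, LOC103693323, which the table describes as the alpha-1 chain of type XXIII collagen, lies outside the name rule and was tested; it averaged 5.47 ± 1.13 CPM in XBS and 6.84 ± 1.80 CPM in MOD (SD, n = 5 each; edgeR adjusted p = 0.525), so the low level of the Col23a1 row is not that of all rows for this collagen.

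None of the 43 tested genes passed an adjusted p of 0.05 by edgeR between XBS and MOD, where 0.0768% of all 14320 tested genes did (0.0279% higher and 0.0489% lower in XBS). At an unadjusted p under 0.05 there were 8 of the 43 (18.6%), against 13.2% of all tested genes. The log2 fold change, XBS over MOD, ran from -0.61 for Col4a3 to 0.71 for Col11a1. Its median was 0.033, against 0.010 over all tested genes. A negative fold change was seen in 20 of the 43 (46.5%), against 48.1% of all tested genes, and a positive one in the other 23, against 51.9%. The groups did not overlap for 1 of the 43, Fbln5 (2.33%), against 2.74% of all tested genes; XBS lay above MOD for it, as for 1.61% of all tested genes.

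**Figure D1:**
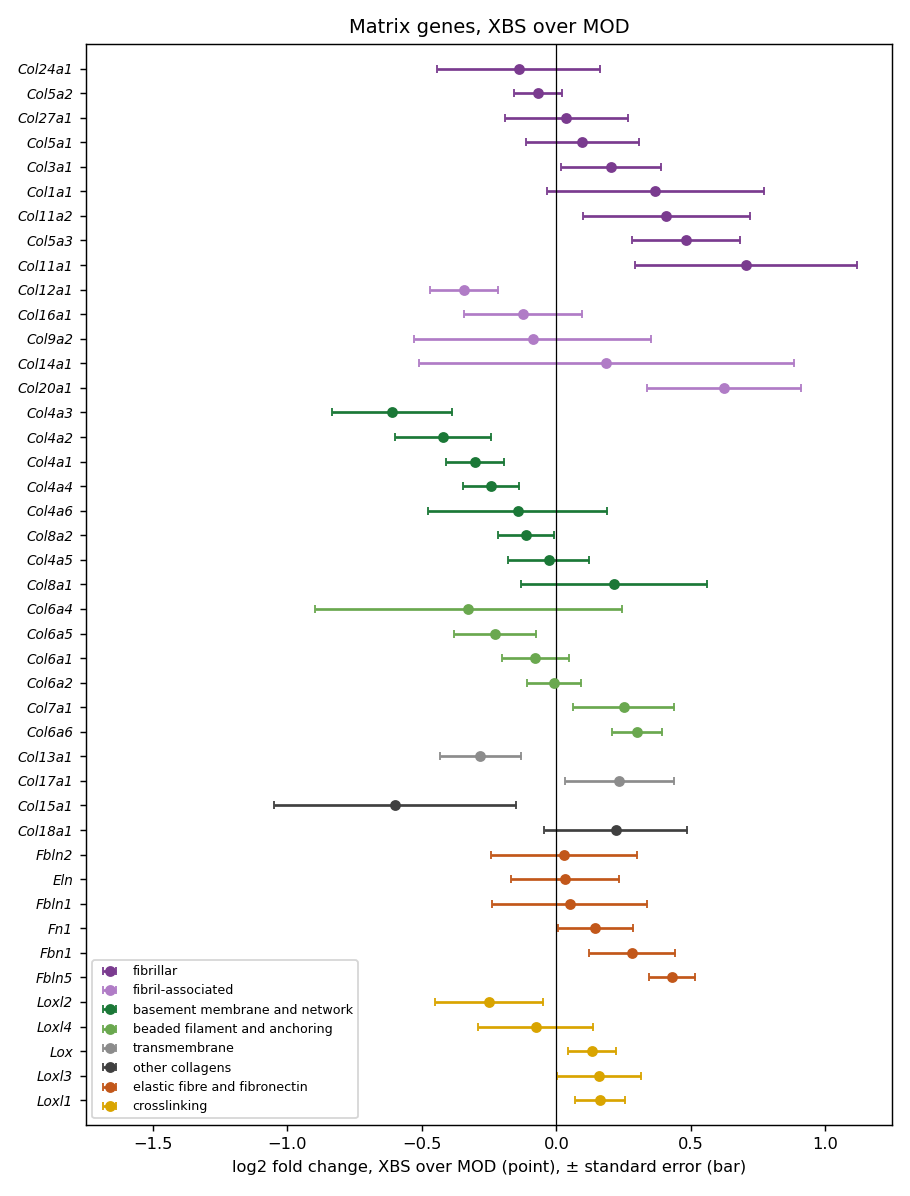
Log2 fold change of each of the 43 tested matrix genes, XBS over MOD (x axis; points, with bars of ± 1 standard error), coloured and grouped by class. Col4a1 to Col4a4 lie left of 0, at -0.24 to -0.61, and Fbln5 lies right of it at 0.43 with a short bar, while the bar of Col1a1 crosses 0.

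In the elastic fibre class, Fbln5 separated the groups. It encodes fibulin 5, which binds elastin and tethers it to cells during fibre assembly. Fbln5 stood at 193, 223, 235, 198 and 213 CPM in XBS 1 to 5, against 159, 159, 149.7, 139 and 181 CPM in MOD 1 to 5. Every XBS library lay above every MOD library, as for 1.61% of all tested genes. Fbln5 had the smallest edgeR p of the 43 tested genes, so it was singled out on these same values. Fbln5 averaged 212 ± 17.3 CPM in XBS and 158 ± 15.6 CPM in MOD (SD, n = 5 each), a 1.35-fold ratio (log2 fold change 0.43 ± 0.084 SE). By edgeR it did not pass over all genes (adjusted p = 0.0859). It passed by DESeq2 (adjusted p = 0.000446), which called 2.43% of all genes, and by limma voom with sample weights (adjusted p = 0.0481), which called 0.461%. Fbln5 (ENSRNOG00000050539) is placed by the deposited table, with its build unstated in the sources used here, on the minus strand of chromosome 6 from 125644804 to 125723944.

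Elastin itself, which fibulin 5 helps to place, did not separate the groups. Eln stood at 1049, 1713, 1557, 1189 and 1997 CPM in XBS 1 to 5, against 1173, 1598, 1249, 1279 and 2036 CPM in MOD 1 to 5 (log2 fold change 0.033 ± 0.20 SE, edgeR adjusted p = 0.956). The groups overlapped over most of their ranges, and the highest library was MOD 5. Fbn1, which encodes fibrillin 1, the main microfibril protein, stood at 274, 305, 276, 327 and 512 CPM in XBS 1 to 5, against 249, 288, 289, 266 and 301 CPM in MOD 1 to 5 (log2 fold change 0.28 ± 0.16 SE, edgeR adjusted p = 0.459). XBS 5 stood far above the other 9 libraries for Fbn1, and without it the log2 fold change was 0.084. The ratio of Eln to Fbln5 in FPKM was 3.76 to 6.503 in XBS and 5.09 to 7.78 in MOD.

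The remaining genes of the class gave no separation. Fbln1, a fibulin of microfibrils and basement membranes, averaged 173 ± 78.5 CPM in XBS and 168 ± 40.1 CPM in MOD (SD, n = 5 each). Fbln2, a fibulin of vessel walls, averaged 33.7 ± 14.1 CPM in XBS and 33.1 ± 8.52 CPM in MOD (SD, n = 5 each). Fn1, which encodes fibronectin, the adhesive protein of the provisional matrix, averaged 917 ± 153 CPM in XBS and 829 ± 152 CPM in MOD (SD, n = 5 each), with an edgeR adjusted p of 0.665. All 6 tested genes of the class had a positive fold change and 0 passed; Eln was negative in 7 of 20 alternative fits. Fbn2, a fibrillin most used in development, had at most 13 counts in a library.

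Lysyl oxidase genes were close between the groups, and 0 of 5 passed. Lox stood at 281, 308, 304, 268 and 307 CPM in XBS 1 to 5, against 322, 264, 273, 248 and 232 CPM in MOD 1 to 5 (log2 fold change 0.13 ± 0.09 SE, edgeR adjusted p = 0.529). The highest and the lowest library were both MOD, and every XBS library lay between them. Loxl1, the family member most tied to elastin, stood at 239.7, 286, 268, 255 and 290 CPM in XBS 1 to 5, against 207, 248, 216, 248 and 277 CPM in MOD 1 to 5 (log2 fold change 0.16 ± 0.091 SE, edgeR adjusted p = 0.452). XBS 2 and XBS 5 were above every MOD library, and the other XBS libraries were within the MOD range. Loxl2, which oxidises collagen IV, averaged 25.6 ± 7.07 CPM in XBS and 30.5 ± 4.88 CPM in MOD (SD, n = 5 each). Loxl3 averaged 12.2 ± 2.53 CPM in XBS and 10.96 ± 1.43 CPM in MOD (SD, n = 5 each) and Loxl4 averaged 10.3 ± 2.68 CPM in XBS and 10.9 ± 2.16 CPM in MOD (SD, n = 5 each).

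**Figure D2:**
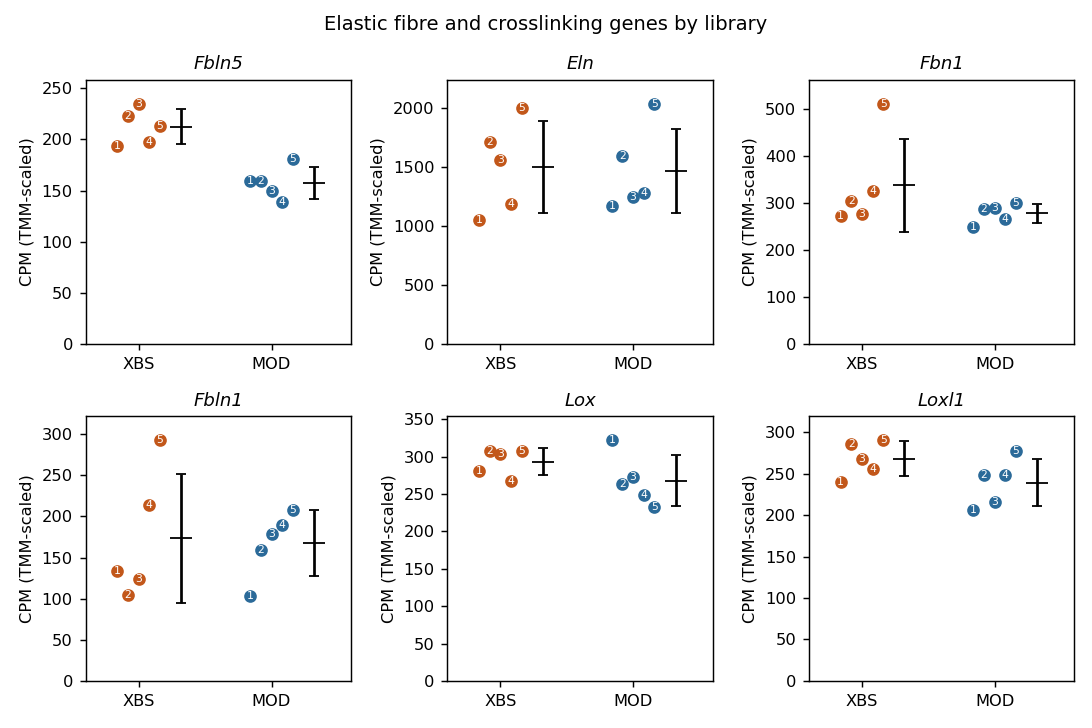
CPM of 6 elastic fibre and crosslinking genes in each library (y axis from 0), XBS left and MOD right; points are libraries marked with their replicate number, and the bar beside them is the mean ± SD of 5. Fbln5 separates the groups (193 to 235 in XBS, 139 to 181 in MOD), where 2.74% of all tested genes did so in either direction. Eln does not separate them, and XBS 5 stands high for Fbn1 (512) and Fbln1 (292).

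Basement membrane collagen averaged lower in XBS for 4 chains, each at an unadjusted p under 0.05 by edgeR and none past the adjusted threshold. Col4a1, which with Col4a2 makes the type IV collagen found in nearly every basement membrane, stood at 965, 1195, 1446, 1349 and 1257 CPM in XBS 1 to 5, against 1444, 1682, 1416, 1621 and 1496 CPM in MOD 1 to 5 (log2 fold change -0.30 ± 0.11 SE, edgeR adjusted p = 0.295). Of the XBS libraries 4 lay below every MOD library, and XBS 3 overlapped them. Col4a2 stood at 420.5, 484, 777, 768 and 676 CPM in XBS 1 to 5, against 687, 973, 771, 949.7 and 803 CPM in MOD 1 to 5 (log2 fold change -0.42 ± 0.18 SE, edgeR adjusted p = 0.355). XBS 1 and XBS 2 were the lowest libraries for both chains.

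The partner chains Col4a3 and Col4a4, part of a network that basement membranes of lung alveoli and kidney glomeruli hold, averaged lower in XBS as well. Col4a3 stood at 71.3, 53.2, 124, 97.9 and 99.4 CPM in XBS 1 to 5, against 108, 178, 125, 162 and 109 CPM in MOD 1 to 5 (1.53-fold lower in XBS, log2 fold change -0.61 ± 0.22 SE, edgeR adjusted p = 0.301). Col4a4 stood at 486, 509, 674, 537 and 519.9 CPM in XBS 1 to 5, against 721, 686, 644, 617 and 558 CPM in MOD 1 to 5 (log2 fold change -0.24 ± 0.10 SE, edgeR adjusted p = 0.358). For each of them 4 of 5 XBS libraries lay below every MOD library, again with XBS 3 as the exception. Col4a5, which joins Col4a3 and Col4a4 in that network, averaged 359 ± 77 CPM in XBS and 366 ± 59.6 CPM in MOD (SD, n = 5 each). Col4a6, its neighbour on chromosome X, averaged 28.4 ± 13.7 CPM in XBS and 31.5 ± 9.98 CPM in MOD (SD, n = 5 each). All 6 type IV chains had a negative fold change, with a median of -0.27; Col4a1 to Col4a4 were negative in 20 of 20 alternative fits, Col4a5 in 15 and Col4a6 in 16.

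The deposited table places Col4a1 (ENSRNOG00000016281) on the plus strand of chromosome 16 from 83522162 to 83632153 and Col4a2 (ENSRNOG00000023972) on the minus strand from 83387364 to 83438561. It places Col4a3 (ENSRNOG00000015365) on the plus strand of chromosome 9 from 88357556 to 88485830 and Col4a4 (ENSRNOG00000014851) on the minus strand from 88232455 to 88357182. A row described as similar to the alpha 3 chain of type IV collagen, LOC100911572, had at most 5 counts in a library. The network collagens Col8a1 and Col8a2 belong to vessel walls and other basement membranes. Col8a1 averaged 18.4 ± 11.7 CPM in XBS and 15.9 ± 2.68 CPM in MOD (SD, n = 5 each), and Col8a2 averaged 23.1 ± 3.08 CPM in XBS and 24.9 ± 1.79 CPM in MOD (SD, n = 5 each).

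Genes of alveolar type 1 and endothelial cells, which sit on these membranes, had mostly negative fold changes. Among other lists, positive fold changes were seen for 2 of 7 alveolar type 2, 1 of 5 club and 1 of 6 ciliated genes tested. For smooth muscle 7 of 8 were positive, with a median log2 fold change of 0.30. All 5 macrophage, 4 neutrophil and 4 thymus and lymphoid genes tested were positive, with medians of 0.40, 0.41 and 0.50. Positive fold changes were also seen for 5 of 6 mesothelial and 2 of 2 Schwann cell genes tested. The counts were 4 of 10 for fibroblast, 1 of 3 for cardiac muscle and 1 of 2 for cartilage genes. In each of these lists 0 genes passed. All 7 alveolar type 1 genes had a negative fold change and 0 passed, and their summed levels were 2944 to 5001 CPM over the XBS libraries and 4670.4 to 5426 CPM over the MOD libraries. Fold changes were negative for 5 of the 6 endothelial genes tested, 0 of which passed, and their sums were 2297 to 3525 CPM over the XBS libraries and 3225 to 4592 CPM over the MOD libraries; Cldn5, a tight junction gene of endothelium, was listed at 0 in every library. XBS 1, the lowest library for Col4a1, Col4a2 and Col4a4, had the lowest endothelial score, a mean log2 deviation of -0.58. XBS 2, the lowest library for Col4a3, had an endothelial score of 0.020 and an alveolar type 1 score of -0.038. The part of these cells in the type IV values was not tested.

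**Figure D3:**
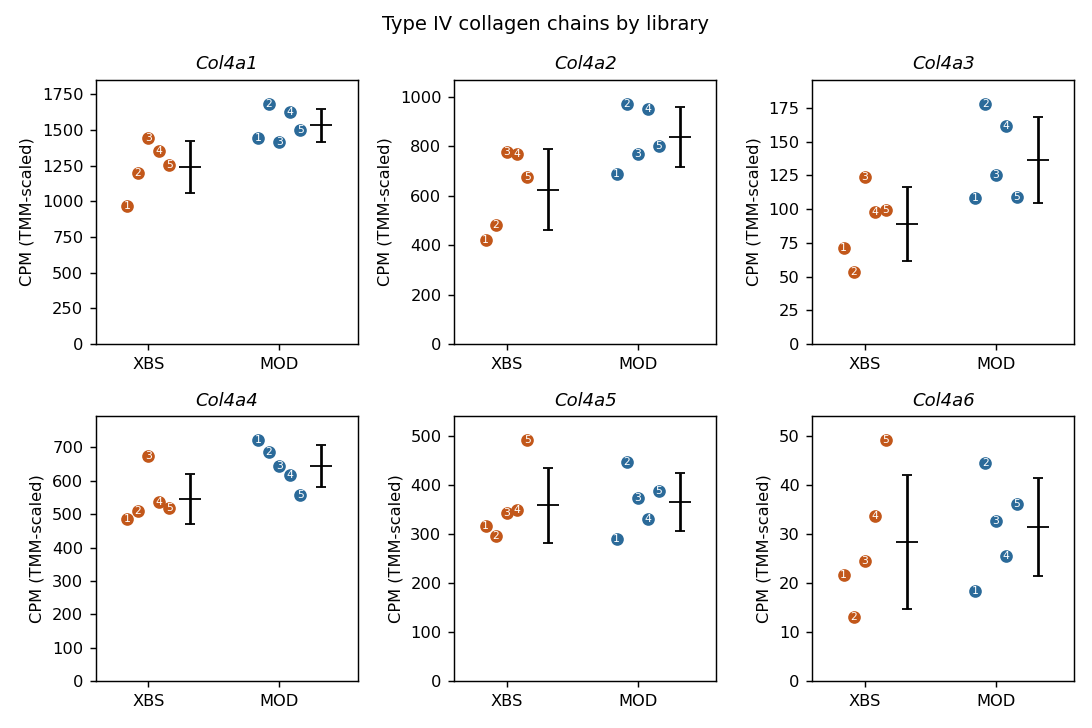
CPM of the 6 type IV collagen genes in each library (y axis from 0), XBS left and MOD right; points are libraries marked with their replicate number, and the bar is the mean ± SD of 5. For Col4a1, Col4a3 and Col4a4 XBS 3 is the XBS library that reaches the MOD range, while for Col4a5 and Col4a6 the groups overlap widely.

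Other basement membrane genes gave no call: of 13 tested laminin, nidogen and related genes 12 had a negative fold change, with a median of -0.12, and 13 did not pass. Lamb1, a laminin chain, averaged 131 ± 21.9 CPM in XBS and 159.8 ± 25.2 CPM in MOD (SD, n = 5 each), with an edgeR adjusted p of 0.401. P3h2, a prolyl 3-hydroxylase known to act on type IV collagen, stood at 27.04, 25.8, 28.2, 29.9 and 22.7 CPM in XBS 1 to 5, against 31.4, 35.8, 35.8, 41.8 and 45.7 CPM in MOD 1 to 5. Every XBS library was below every MOD library for P3h2 (1.42-fold lower, log2 fold change -0.51 ± 0.11 SE, edgeR adjusted p = 0.122). XBS lay below MOD without overlap for 1.13% of all tested genes.

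Among fibrillar collagens, the load-bearing fibres, a single library stood out. Col1a1, the main chain of type I collagen, stood at 735, 703, 748, 1275 and 2772 CPM in XBS 1 to 5, against 511, 1069, 939, 976 and 1332 CPM in MOD 1 to 5 (log2 fold change 0.37 ± 0.40 SE, edgeR adjusted p = 0.708). XBS 5 was far above every other library, while XBS 1, XBS 2 and XBS 3 lay below 4 of the 5 MOD libraries. Without XBS 5 the log2 fold change of Col1a1 was -0.16. Col3a1, the collagen of reticular fibres, stood at 2612, 2559, 2753, 3181 and 4583 CPM in XBS 1 to 5, against 1875, 2987, 2730.4, 2833 and 3196 CPM in MOD 1 to 5 (log2 fold change 0.20 ± 0.19 SE, edgeR adjusted p = 0.646). Its highest library was again XBS 5 and its lowest MOD 1, and without XBS 5 its log2 fold change was 0.027. The FPKM ratio of Col1a1 to Col3a1 was 0.222 to 0.495 in XBS and 0.223 to 0.341 in MOD, highest in XBS 5.

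The type V chains, which help set the diameter of type I fibrils, included 1 of the 8 genes under an unadjusted p of 0.05. Col5a3, the rarest of them, stood at 11.2, 15.5, 12.6, 12.9 and 23.3 CPM in XBS 1 to 5, against 11.6, 11.5, 8.56, 10.04 and 12.4 CPM in MOD 1 to 5 (log2 fold change 0.48 ± 0.20 SE, edgeR adjusted p = 0.348). All XBS libraries but XBS 1 were above every MOD library, and without XBS 5 the log2 fold change was 0.27. Col5a1 averaged 144 ± 49.9 CPM in XBS and 134 ± 23.6 CPM in MOD (SD, n = 5 each), and Col5a2 averaged 357 ± 19.4 CPM in XBS and 374 ± 45.2 CPM in MOD (SD, n = 5 each). Col11a1, a fibril-nucleating chain of cartilage, was near the floor, where 3 counts equal 0.193 to 0.25 CPM. It stood at 0.986, 1.999, 0.606, 1.08 and 2.65 CPM in XBS 1 to 5, against 0.717, 0.865, 0.732, 0.731 and 1.42 CPM in MOD 1 to 5 (log2 fold change 0.71 ± 0.41 SE, edgeR adjusted p = 0.468). Without XBS 5 its log2 fold change was 0.38. Col11a2, its partner chain, averaged 9.84 ± 3.93 CPM in XBS and 7.4 ± 2.77 CPM in MOD (SD, n = 5 each). Col24a1 and Col27a1, fibrillar collagens best known from developing skeleton, were low: Col24a1 averaged 1.48 ± 0.555 CPM in XBS and 1.62 ± 0.404 CPM in MOD (SD, n = 5 each), and Col27a1 averaged 15.7 ± 5.53 CPM in XBS and 15.3 ± 3.06 CPM in MOD (SD, n = 5 each). Of 9 tested fibrillar genes 7 had a positive fold change and 0 passed.

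The alpha 2 chain of type I collagen falls outside the name rule, because the table gives it the symbol NEWGENE_621351 on 2 rows of chromosome 4. The first (ENSRNOG00000011292) averaged 55.8 ± 22.9 CPM in XBS and 38.5 ± 8.17 CPM in MOD, and the second (ENSRNOG00000052925) 0.922 ± 0.63 CPM in XBS and 0.665 ± 0.0692 CPM in MOD (SD, n = 5 each). The sources used here do not state how reads shared by both rows were counted, so these levels are uncertain. XBS 5 was the highest library on both rows.

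Fibril-associated collagens sit on the surface of fibres and link them to their surroundings. Col12a1, which binds type I fibrils, stood at 141, 173, 175, 139 and 168 CPM in XBS 1 to 5, against 205, 243, 173, 231 and 158 CPM in MOD 1 to 5 (log2 fold change -0.34 ± 0.13 SE, edgeR adjusted p = 0.300). The ranges overlapped through MOD 3 and MOD 5. Col14a1, another collagen of fibril surfaces, had the widest range of the tested genes, 13.4-fold from lowest to highest library. It stood at 17.8, 18.3, 18.5, 76.3 and 175 CPM in XBS 1 to 5, against 13.05, 56.2, 54.2, 59.8 and 85.6 CPM in MOD 1 to 5 (log2 fold change 0.19 ± 0.70 SE, edgeR adjusted p = 0.926). XBS 1, XBS 2, XBS 3 and MOD 1 formed the low end and XBS 5 the top. Col16a1, a minor collagen of fibrils and microfibrils, stood at 139, 107, 157, 126 and 99.2 CPM in XBS 1 to 5, against 129, 116, 97.3, 116 and 226 CPM in MOD 1 to 5 (log2 fold change -0.12 ± 0.22 SE, edgeR adjusted p = 0.830). MOD 5 stood above all other libraries for it. Col20a1, a collagen of low level here, stood at 3.94, 5.11, 5.39, 4.93 and 6.598 CPM in XBS 1 to 5, against 3.94, 2.31, 1.68, 3.72 and 5.17 CPM in MOD 1 to 5 (log2 fold change 0.62 ± 0.29 SE, edgeR adjusted p = 0.381). XBS 3 and XBS 5 were above every MOD library. Col9a2, a chain of cartilage type IX collagen, averaged 9.27 ± 5.89 CPM in XBS and 9.87 ± 3.36 CPM in MOD (SD, n = 5 each).

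Type VI collagen makes beaded filaments around cells. Col6a1, of its main form, stood at 475, 361, 469, 525 and 574 CPM in XBS 1 to 5, against 412, 573, 510, 522 and 521 CPM in MOD 1 to 5 (log2 fold change -0.078 ± 0.13 SE, edgeR adjusted p = 0.814). Its partner Col6a2 averaged 486 ± 55.7 CPM in XBS and 489.5 ± 51.3 CPM in MOD (SD, n = 5 each). The groups overlapped for both. No row has the symbol Col6a3, so that chain is not described here. Col6a6, a chain that can replace Col6a3 in the filament, stood at 69.5, 77.8, 55.4, 61.7 and 64.5 CPM in XBS 1 to 5, against 53.7, 48.95, 50.3, 56.4 and 57.6 CPM in MOD 1 to 5 (log2 fold change 0.30 ± 0.093 SE, edgeR adjusted p = 0.228). XBS 3 was the XBS library that did not lie above all MOD libraries. Col6a5, a related chain encoded on the same chromosome, stood at 195, 167, 136, 195 and 151 CPM in XBS 1 to 5, against 165, 202, 189, 271 and 161 CPM in MOD 1 to 5 (log2 fold change -0.23 ± 0.15 SE, edgeR adjusted p = 0.520). Its highest library was MOD 4, without which the log2 fold change was -0.087. Col6a4 averaged 10.2 ± 10.2 CPM in XBS and 12.8 ± 7.06 CPM in MOD (SD, n = 5 each), with its highest level in XBS 2 and its lowest in XBS 5. Col7a1, the anchoring fibril collagen, averaged 29.4 ± 5.35 CPM in XBS and 24.7 ± 7.26 CPM in MOD (SD, n = 5 each). Col6a4, Col6a5 and Col6a6 are related in sequence, and the counting of reads shared between them is not stated.

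Collagens with signalling fragments and those of the cell membrane gave no call. Col18a1, whose fragment is endostatin, stood at 112, 88.5, 103, 96.8 and 243 CPM in XBS 1 to 5, against 85.7, 132, 111, 120.3 and 103 CPM in MOD 1 to 5 (log2 fold change 0.22 ± 0.26 SE, edgeR adjusted p = 0.738). XBS 5 stood far above the rest, and without it the log2 fold change was -0.14. Col15a1, of vessel basement membranes, stood at 9.45, 9.99, 10.4, 14.9 and 30.8 CPM in XBS 1 to 5, against 8.53, 42.5, 17.9, 29.4 and 16.2 CPM in MOD 1 to 5 (log2 fold change -0.60 ± 0.45 SE, edgeR adjusted p = 0.571). Its highest library was MOD 2 and its lowest MOD 1; the log2 fold change was -1.03 without XBS 5 and -0.25 without MOD 2. A further row described as similar to it, LOC108348074, had at most 45 counts in a library. Col13a1, a membrane collagen of cell adhesions, stood at 185, 152, 127, 129 and 117 CPM in XBS 1 to 5, against 152, 206, 184, 191 and 130.2 CPM in MOD 1 to 5 (log2 fold change -0.28 ± 0.15 SE, edgeR adjusted p = 0.437). For Col13a1 XBS 3, XBS 4 and XBS 5 were below every MOD library. Col17a1, the hemidesmosome collagen of epithelium, stood at 29.9, 24.2, 17.9, 18.8 and 14.4 CPM in XBS 1 to 5, against 19.9, 18.4, 19.8, 19.3 and 12.04 CPM in MOD 1 to 5 (log2 fold change 0.23 ± 0.20 SE, edgeR adjusted p = 0.624). XBS 1 and XBS 2 were above every MOD library, and without XBS 1 the log2 fold change was 0.075.

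Single libraries set the extremes of many of these genes. XBS 5 was the highest library for 19 of the 43 tested genes (44.2%), against 12.7% of all tested genes, and MOD 1 the lowest for 15 (34.9%), against 9.29%. The mean log2 deviation over the 43 genes was 0.30 in XBS 5 and -0.15 to 0.052 in the other XBS libraries, against -0.17 to 0.13 in MOD. The range from lowest to highest library was narrowest for Col5a2 and Col6a2, at 1.38-fold each. Relative to the median of the other 9 libraries, XBS 5 held 3.22-fold Col14a1, 2.95-fold Col1a1, 2.36-fold Col18a1 and 1.56-fold Eln, but 0.870-fold Col4a1 and 0.770-fold Col13a1.

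XBS 5 also stood apart in markers of other cells. Its score was the highest of the 10 libraries for fibroblast (0.80), smooth muscle (0.98), cardiac muscle (2.09), Schwann cell (1.86), club cell (1.42) and thymus and lymphoid genes (0.75), as mean log2 deviations. XBS 5 had the lowest score for mesothelial (-2.08), alveolar type 1 (-0.54) and alveolar type 2 genes (-0.53). The mesothelial genes were split. Upk3b, Upk1b, Wt1 and Lrrn4 were lowest in XBS 5, near the floor at 0 to 0.932 CPM. Msln was highest in XBS 5, at 81.5 CPM, and Krt19 was neither highest nor lowest. The 10 fibroblast genes summed to 1175 to 2731 CPM over the XBS libraries and 1215 to 1881 CPM over the MOD libraries, and 0 passed. These genes were split in XBS 5. Dcn, Lum, Pi16, Pdgfrb, Clec3b and Inmt were highest there, while Pdgfra, Dpt and Npnt were neither highest nor lowest. Tcf21 was lowest there, at 135 CPM, against 164 to 214 CPM in the other libraries. The 8 smooth muscle genes summed to 1618 to 4068 CPM over the XBS libraries and 1295 to 2458 CPM over the MOD libraries, and 0 passed. In MOD 1 the fibroblast score was -0.46 and the smooth muscle score -0.67. Of 8 cartilage genes 6 were too low to test, and Matn1, a cartilage matrix gene, was listed at 0 in every library. The part of these cells in the collagen values was not tested.

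**Figure D4:**
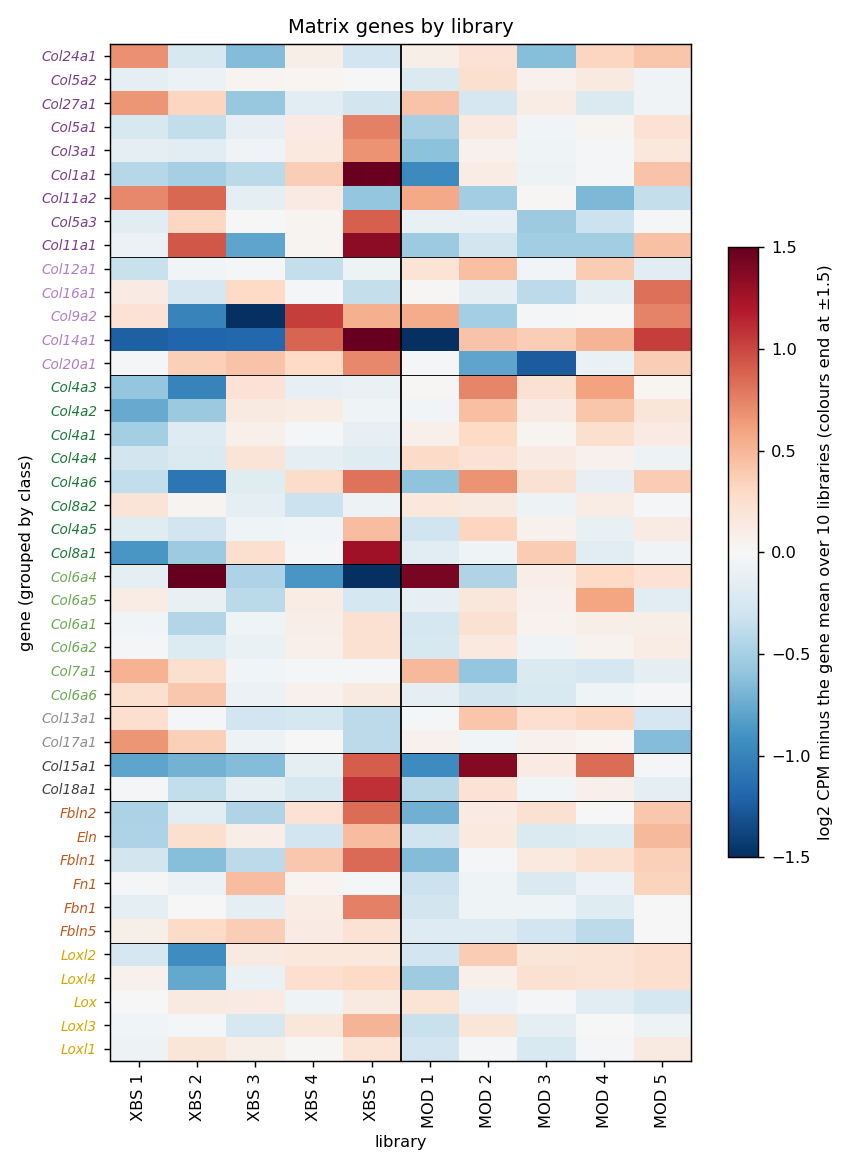
The 43 tested matrix genes (rows, grouped by class) in each library (columns, XBS left of the vertical line and MOD right), as log2 CPM minus the mean of the gene over 10 libraries; red is higher and blue lower. XBS 5 is red for Col1a1 (2772 CPM), Col3a1, Col18a1 and the fibulins, MOD 1 is blue for several of the same genes, and the row of Fbln5 is red in all 5 XBS libraries and blue or white in MOD.

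Pairs of matrix genes, most of them partners in assembly, tracked each other across the 10 libraries to different degrees. In all, 12 pairs were examined with two-sided permutation tests, which set r against 0. For each pair r was also taken without 2 libraries, those farthest from the median of 1 gene of the pair. That gene was the one named first, or Col1a1 for Eln with Col1a1, and the other gene played no part in the choice. No background of other gene pairs was drawn. Whether partners track more closely than other matrix genes was therefore not tested. Col1a1 and Col3a1 had Pearson r = 0.969 (permutation p = 2e-05, adjusted p = 0.00024) and Spearman rho = 0.988 (permutation p = 2e-05, adjusted p = 0.00024), where 2e-05 is the smallest p that 100000 resamples give, and r = 0.958 without XBS 5 and MOD 1. Col4a1 and Col4a2, whose starts lie 77 bases apart in GRCr8 and 83601 in the deposited table, had Pearson r = 0.950 (permutation p = 0.0001, adjusted p = 0.0004) and Spearman rho = 0.964 (permutation p = 6e-05, adjusted p = 0.00032), and r = 0.889 without XBS 1 and XBS 2. Col4a5 and Col4a6, a pair added after seeing the data, had Pearson r = 0.925 (permutation p = 4e-05, adjusted p = 0.00024) and Spearman rho = 0.964 (permutation p = 8e-05, adjusted p = 0.00032), and r = 0.910 without XBS 5 and MOD 2. Col6a1 and Col6a2 had Pearson r = 0.914 (permutation p = 0.00034, adjusted p = 0.00102) and Spearman rho = 0.939 (permutation p = 0.00032, adjusted p = 0.00096), and r = 0.907 without XBS 2 and MOD 1. After centring on group means, r was 0.979, 0.924, 0.931 and 0.929 for these pairs in turn.

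Col4a3 and Col4a4 tracked less closely, with Pearson r = 0.731 (permutation p = 0.0127, adjusted p = 0.0305) and Spearman rho = 0.746 (permutation p = 0.0169, adjusted p = 0.0405). The relation did not pass when XBS 2 and MOD 2 were left out (r = 0.655, adjusted p = 0.142) or after centring on group means (r = 0.534, adjusted p = 0.157). Within groups of 5, r was 0.731 among XBS and 0.171 among MOD libraries, as a description. The FPKM ratio of Col4a4 to Col4a3 was 3.19 to 5.84 in XBS and 2.33 to 4.08 in MOD. Col1a1 and Col4a1, of fibre and basement membrane, had Pearson r = 0.0685 (permutation p = 0.902, adjusted p = 0.902) and Spearman rho = 0.261 (permutation p = 0.480, adjusted p = 0.529), and r = 0.555 without XBS 5 and MOD 1. Col5a1 and Col5a2 had Pearson r = 0.462 (permutation p = 0.182, adjusted p = 0.273) and Spearman rho = 0.491 (permutation p = 0.156, adjusted p = 0.207), and r = 0.556 without XBS 5 and MOD 1.

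Elastin did not pass with any of its 4 partners. Eln and Col1a1 had Pearson r = 0.572 (permutation p = 0.0874, adjusted p = 0.150) and Spearman rho = 0.552 (permutation p = 0.104, adjusted p = 0.157), and r = 0.214 without XBS 5 and MOD 1. Eln and Fbn1 had Pearson r = 0.566 (permutation p = 0.0847, adjusted p = 0.150) and Spearman rho = 0.564 (permutation p = 0.0992, adjusted p = 0.157), and r = 0.262 without MOD 5 and XBS 5. Eln and Fbln5 had Pearson r = 0.380 (permutation p = 0.271, adjusted p = 0.361) and Spearman rho = 0.249 (permutation p = 0.485, adjusted p = 0.529), and r = 0.351 without MOD 5 and XBS 5. After centring on group means r was 0.731 for Eln and Fbln5 (adjusted permutation p = 0.0470). The centred values were permuted over all 10 libraries with no allowance for the centring, so this p may be too small. Eln and Lox had Pearson r = -0.0933 (permutation p = 0.801, adjusted p = 0.873) and Spearman rho = -0.212 (permutation p = 0.568, adjusted p = 0.568), and r = 0.172 without MOD 5 and XBS 5.

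Lox and the collagen it crosslinks did not pass over all libraries: Col1a1 and Lox had Pearson r = -0.273 (permutation p = 0.459, adjusted p = 0.551) and Spearman rho = -0.600 (permutation p = 0.0741, adjusted p = 0.148). Without XBS 5 and MOD 1, r was -0.827 (adjusted permutation p = 0.0304), and after centring on group means over all 10 it was -0.407 (adjusted permutation p = 0.277). Among the 5 XBS libraries r was 0.0863 and among the 5 MOD libraries -0.954, given as a description. MOD 1 had the lowest Col1a1 and the highest Lox, MOD 5 the highest Col1a1 of its group and the lowest Lox, and XBS 5 was high in both.

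**Figure D5:**
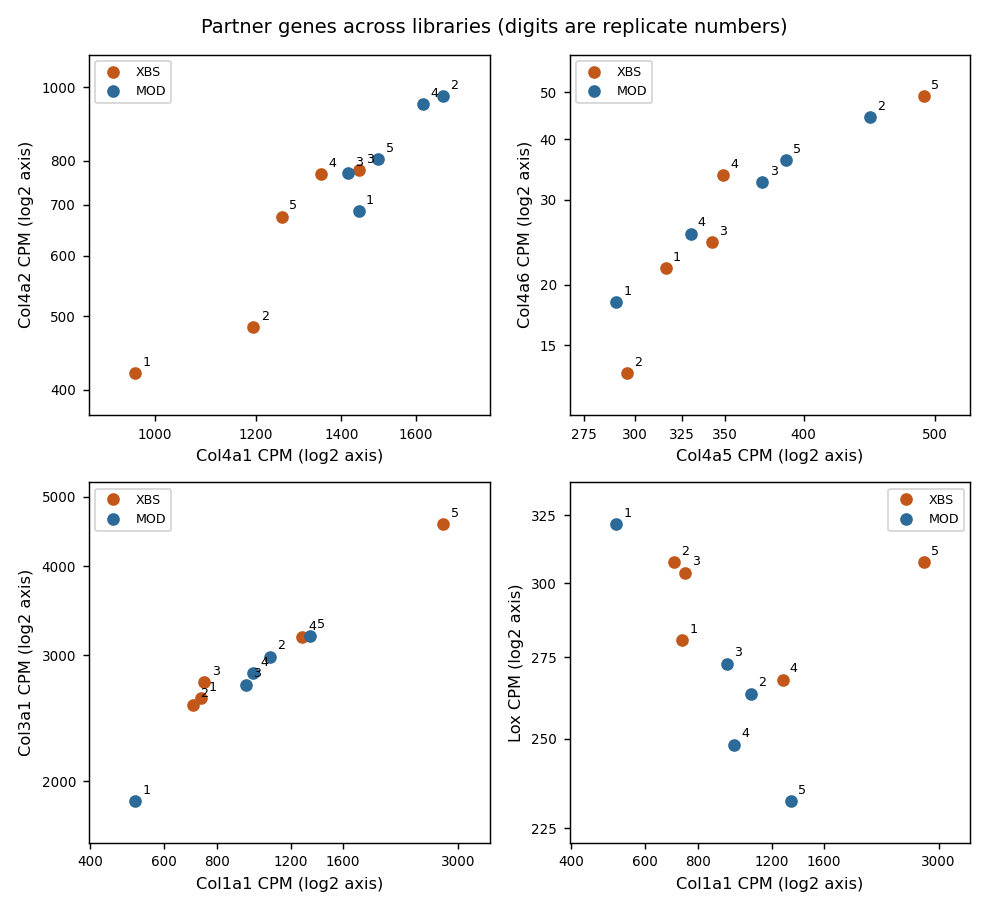
Pairs of partner genes across the 10 libraries (CPM, both axes log2; orange XBS, blue MOD; digits are replicate numbers). Col4a1 with Col4a2, Col4a5 with Col4a6 and Col1a1 with Col3a1 lie near a line (r = 0.950, 0.925 and 0.969), while for Col1a1 with Lox XBS 5 lies high on both axes (r = -0.273).

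Genes that fold, process and organise the scaffold gave 0 calls in either direction over 7 lists. Of 17 tested genes of collagen folding and hydroxylation 9 had a positive fold change; P4ha1, a prolyl 4-hydroxylase subunit, averaged 101 ± 15.5 CPM in XBS and 129 ± 21.04 CPM in MOD (SD, n = 5 each), with an edgeR adjusted p of 0.311. Of 6 tested procollagen processing genes 5 were positive; Bmp1, the protease that trims procollagen and activates Lox, averaged 214 ± 54.3 CPM in XBS and 151 ± 29.97 CPM in MOD (SD, n = 5 each), with an edgeR adjusted p of 0.293. Of 13 tested elastic fibre assembly genes 8 were positive. Among them Efemp2, which encodes fibulin 4, needed for elastin crosslinking, stood at 41.7, 42.3, 41.8, 41.3 and 54.3 CPM in XBS 1 to 5, against 36.7, 30.6, 36.1, 37.2 and 36.3 CPM in MOD 1 to 5 (log2 fold change 0.32 ± 0.10 SE, edgeR adjusted p = 0.214). Every XBS library lay above every MOD library for Efemp2, as for 1.61% of all tested genes. The groups did not overlap for 1 of these 13 genes and for 1 of the 17 folding genes, P3h2. The other lists had 0 such genes, where 2.74% of all tested genes did not overlap. Of 6 tested small leucine-rich proteoglycans 4 were positive, of 7 collagen receptors 2, and of 9 matricellular genes 5. P3h2, Lamb1, P4ha1, Bmp1 and Efemp2 were named after their values were seen.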

How the data were processed

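Messenger RNA from rat lung was sequenced in 10 libraries, grouped as XBS or MOD by their titles. The deposited table gives read counts per gene, and the authors' FPKM, which equals count over length and library total to within 8.82e-08. The sources used here name no aligner, counter or rat build. Genes were tested on the deposited counts with edgeR 4.0.16 in R 4.3.3 (TMM, filterByExpr with a minimum count of 10, robust quasi-likelihood test, XBS over MOD); p-values were adjusted by Benjamini-Hochberg over 14320 genes with a threshold of 0.05; 3889 genes were at 0 throughout. Levels are TMM-scaled CPM computed here, and marker scores are mean log2 deviations from each gene's mean over libraries. Precision follows from totals of 11998979 to 15518929 counts; 3 counts equal 0.193 to 0.25 CPM. Pair correlations used log2 CPM without a prior count and 100000 permutations. Marker scores used log2 CPM with a prior count of 2. The scripts were tested on simulated data. Alternatives were DESeq2 1.42.0, limma 3.58.1 voom, other scalings and filters, covariates and libraries left out. No pair of libraries of a group agreed within sampling noise (chi-square divided by its degrees of freedom was at least 9.80, on genes averaging 20 counts or more).

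The member genes and lists were chosen with earlier results of these data known. Members with full values are those named by class: the gene of highest mean FPKM and the 2 of smallest p, plus any gene whose groups did not overlap. Pair genes may be added. Col14a1 lies outside this rule and was given in full for its wide range, after its values were seen.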

Additional observations from a re-analysis of the deposited data

Results flagged for a closer look

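In 9 of 56 groups of 5 libraries checked (28 genes in XBS and MOD), 1 library stood apart from the other 4 by Dixon's criterion on CPM. Chance meets that criterion in about 1 group in 20 where values are normal and groups independent. These genes share the same libraries and several track each other, so whether 9 exceeds chance was not tested.

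XBS 5 stood high for 5 genes. Col1a1, of type I collagen, was at 2772 CPM there, against 703 to 1275 CPM in the other XBS libraries. Fbn1, fibrillin 1, was at 512 CPM, against 274 to 327 CPM in the others. Col18a1, the source of endostatin, was at 243.4 CPM, against 88.5 to 112 CPM. Col15a1, of vessel basement membranes, was at 30.77 CPM, against 9.45 to 14.9 CPM. Col4a5, of the alveolar basement membrane, was at 491.3 CPM, against 296 to 348 CPM. In the same library the marker scores of fibroblasts, smooth muscle, cardiac muscle and Schwann cells were the highest of the 10, and their part in these values was not tested.

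MOD 5 stood apart for 3 genes. Col16a1 was high at 226.2 CPM, against 97.3 to 129 CPM in the other MOD libraries. Col11a1 was high at 1.416 CPM, against 0.717 to 0.865 CPM. Col17a1, of hemidesmosomes, was low at 12.04 CPM, against 18.4 to 19.9 CPM. For Col4a4, XBS 3 was high at 673.7 CPM, against 486 to 537 CPM in the other XBS libraries.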

How the results depend on the processing

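Over 20 alternative fits the log2 fold change of Fbln5 ran from 0.35 to 0.48 and its adjusted p from 0.000446 to 0.301. The number of member genes passing higher in XBS was 1, Fbln5, by DESeq2 (log2 fold change 0.43), by limma voom (0.45) and at an adjusted p under 0.1 by edgeR, where 0.468% of all genes passed; it was 0 in every fit that left out 1 library, and 0 passed lower. Genes without overlap between groups numbered 2 with no filter (Col26a1 added; 2.26% of all genes tested there had none), 5 without XBS 2 and XBS 3 (7.18%), and 1 to 5 with 1 library left out: 5 without XBS 3 (4.21%), 3 without MOD 1 (8.2%) and 2 without XBS 1 (3.28%). XBS 3 was the overlapping XBS library for 4 of those 5, so its removal had to separate them. The median log2 fold change ran from -0.11 to 0.12 with 1 library left out.

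Of the single-gene values 522 kept their direction and side of the threshold, 2 newly passed and 36 changed sign, none of them past the threshold on either side. Upper quartile scaling gave 0.0016 for Col6a2, and voom 0.064 for Col16a1. With the airway score as covariate the values were 0.012 (Col6a1), 0.059 (Col6a2), 0.047 (Col4a5) and 0.022 (Col4a6). Without XBS 2 and XBS 3 they were 0.047 (Col6a1), -0.056 (Eln), 0.083 (Col6a2), 0.074 (Col4a5) and 0.15 (Col4a6). Without MOD 4 and XBS 5 they were -0.14 (Eln), -0.11 (Col18a1), -0.15 (Col1a1) and -0.12 (Col5a1). With 1 library left out the ranges were -0.15 to 0.0089 (Col6a1), -0.071 to 0.037 (Col6a2), -0.092 to 0.18 (Eln), -0.17 to 0.055 (Col4a5), -0.43 to 0.037 (Col4a6), -0.14 to 0.33 (Col18a1), -0.16 to 0.52 (Col1a1), -0.13 to 0.19 (Col5a1) and -0.23 to 0.13 (Col16a1). The cause was not tested.

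Among correlations, r without the 2 libraries farthest in the first gene of the pair was 0.655 (adjusted permutation p = 0.142) for Col4a3 with Col4a4. For Eln with Lox r was 0.172, where the sign changed. For Col1a1 with Lox r was -0.827 (adjusted permutation p = 0.0304), which then passed, with libraries chosen on Col1a1 alone. After centring on group means it was 0.534 for Col4a3 with Col4a4 and 0.731 (adjusted permutation p = 0.047) for Eln with Fbln5, which then passed. That p makes no allowance for the centring and may be too small. The planned pair of Col1a1 with Col1a2 was not run, as no row has the symbol Col1a2.

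With the replicate number as a block, 0 member genes passed in either direction, 1 had no overlap, the median log2 fold change was -0.011 and the adjusted p of Fbln5 was 0.166. Libraries with the same number correlated from -0.125 to 0.329 in their deviations, and 1 of 5 XBS libraries matched its own number best, so the numbers are not treated as pairing.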
